A study of Mus musculus with 8 samples.

Results

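The Lgr5-positive epithelial cells of the mouse small intestine described here were 213 barcodes of 1 droplet single-cell library. They were chosen by a fixed rule: at least 500 detected genes, at most 20% of unique molecular identifiers (UMIs, which count captured RNA molecules) from mitochondrial genes, at least 2 Lgr5 UMIs and at least 1 Epcam UMI. Epcam encodes an adhesion protein of epithelial cells. Of 8842 deposited barcodes, 2756 passed the filters on genes and mitochondrial RNA, 1871 of these had an Epcam UMI, and the 213 members made up 11.4% of them (95% exact binomial interval 9.98% to 12.9%). The remaining 1658 Epcam-positive barcodes were the comparison group. Because measured Lgr5 chose the members, their Lgr5 and Epcam values are descriptions only. All cells came from 1 library, so no replicate check and no test was possible, and every interval covers counting error only.

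The study asked how lymphatic vessels and intestinal stem cells interact. Whole small intestine and whole large intestine of mice were digested and processed separately, and live cells were sorted so that LGR5+ stem cells and lymphatic endothelial cells (CD31+ PDPN+ LYVE1+) were enriched. The mice were C57BL/6 and Lgr5-eGFP-ires-CreERT2 on a C57BL/6 background. The labels give neither the number or age of the animals nor which strain a barcode came from, and the shares below describe a sorted suspension, not the tissue. The small intestinal library gave the members, and the same rule in the large intestinal library gave 540 barcodes of 5294 Epcam-positive ones. Small intestinal organoids of C57BL/6 mice at Passage 1, grown alone (CTRL) or in COCULTURE, formed 2 more libraries.

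LGR5 is a receptor for R-spondins. R-spondin binding keeps Wnt receptors at the cell surface by restraining the ubiquitin ligases RNF43 and ZNRF3, and so strengthens Wnt signalling. In the small intestine the cells with the most Lgr5 are the columnar cells at the crypt base, which divide, sit between Paneth cells and give rise to all other epithelial cells. OLFM4, ASCL2, SMOC2 and AXIN2 are widely used markers of these cells in the mouse small intestine.

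The members held 6675331 UMIs in all, with 5727 to 161196 per cell (median 23127), against a median of 24623 in the other Epcam-positive barcodes. Their mitochondrial share ran from 1.12% to 19.7% (median 7.54%), and the 20% limit removed 142 of the 356 barcodes that otherwise had 2 Lgr5 UMIs and an Epcam UMI. Lgr5 itself ranged from 2 to 31 UMIs per member (median 4), and 62 members stood exactly at the limit of 2, while 112 barcodes with 1 Lgr5 UMI fell just outside. A further 5 kept barcodes with 2 or more Lgr5 UMIs had no Epcam UMI. The small and large intestinal libraries shared 25 barcode sequences, none of them a member in either, and the organoid libraries shared none with the members. A doublet score was computed but removed no barcode from the values given here. The members included 6 of the 61 barcodes with the highest scores, and 2 of those 6 carried genes of another cell type.

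The promoters of 4 genes are printed first, because these genes stand among the 15 highest in the members and because Wnt and Notch, both of which maintain crypt base cells, act through known short motifs. TCF/LEF proteins carry the Wnt signal to DNA, and RBPJ carries the Notch signal. The motifs searched on both strands were CTTTGAT and CTTTGAA for TCF/LEF and TGGGAA for RBPJ, which do not overlap each other. The window was the 250 bases before each RefSeq gene start in GRCm38.p6, the strand shown is that of the gene, positions count the first base of a match back from the start, and capitals mark the matches, which read as the reverse complement where they lie on the other strand.

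The Olfm4 window (chr14:80000052-80000301, + strand) holds TGGGAA at position -12 from the start.
Olfm4: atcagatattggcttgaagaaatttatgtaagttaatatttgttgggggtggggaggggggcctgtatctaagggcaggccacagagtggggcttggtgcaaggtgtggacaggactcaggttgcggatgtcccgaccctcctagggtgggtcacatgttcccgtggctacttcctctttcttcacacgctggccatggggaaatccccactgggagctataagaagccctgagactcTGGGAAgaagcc

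The Sp5 window (chr2:70474673-70474922, + strand) holds CTTTGAT at -104 and TGGGAA on the opposite strand at -66 and -17. SP5 is a transcription factor induced by Wnt signalling.
Sp5: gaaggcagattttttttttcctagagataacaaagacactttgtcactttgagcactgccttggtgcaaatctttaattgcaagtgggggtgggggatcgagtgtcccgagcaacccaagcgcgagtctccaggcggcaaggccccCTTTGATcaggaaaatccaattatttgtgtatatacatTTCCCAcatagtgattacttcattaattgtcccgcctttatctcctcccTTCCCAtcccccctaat

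The window before the more downstream of the Tnfrsf19 starts (chr14:61037988-61038237, - strand) holds CTTTGAT on the opposite strand at -202, and the window of its other start holds neither motif. TNFRSF19, also known as TROY, is a receptor of the tumour necrosis factor receptor family found on crypt base cells.
Tnfrsf19: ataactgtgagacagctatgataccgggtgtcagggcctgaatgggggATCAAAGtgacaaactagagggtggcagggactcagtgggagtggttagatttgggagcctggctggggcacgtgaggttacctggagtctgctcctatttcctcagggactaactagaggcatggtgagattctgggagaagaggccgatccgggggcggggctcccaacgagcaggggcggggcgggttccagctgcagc

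The Ascl2 window (chr7:142969265-142969514, - strand) holds neither motif. ASCL2 is a basic helix-loop-helix transcription factor that maintains crypt base cells.
Ascl2: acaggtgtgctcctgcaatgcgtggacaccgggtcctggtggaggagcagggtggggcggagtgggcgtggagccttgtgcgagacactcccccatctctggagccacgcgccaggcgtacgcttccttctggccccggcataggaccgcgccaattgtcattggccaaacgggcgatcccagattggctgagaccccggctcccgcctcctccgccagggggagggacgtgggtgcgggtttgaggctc

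Among 27025 mouse genes with at least 1 such window, 8.63% held a TCF/LEF match and 24.1% an RBPJ match. Windows were found for 19 genes of the stem cell list described below. Of these, 1 (5.26%) held a TCF/LEF match, Tnfrsf19, and 6 (31.6%) an RBPJ match, namely Cd44, Cdca7, Jun, Olfm4, Pdgfa and Prom1. Of the 15 genes with the highest ratio in the members, 12 had a window, with TCF/LEF matches in 3 (Scn2b, Sp5 and Tnfrsf19) and RBPJ matches in 5 (Bex1, Bex4, Olfm4, Sorbs2 and Sp5). A match describes the letters of the window and does not show that a factor binds there.

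The members were not all of 1 kind. In 18 of them, Paneth genes took between 52.6% and 84.5% of all UMIs, while no other member exceeded 12.8%. Paneth cells secrete antimicrobial peptides at the crypt base. A further 16 members held 69 to 358 UMIs of tuft cell genes, against at most 5 in the others, and tuft cells are chemosensory cells that do not belong to the stem cell pool in its usual description. In 6 members goblet cell genes took at least 1.22% of UMIs, against at most 0.317% in members not dominated by Paneth genes. Finally, 1 member carried 200 UMIs of macrophage genes and 1 carried 61 UMIs of smooth muscle genes. These limits were set after seeing the values, at gaps between members. Among all 1871 Epcam-positive barcodes, 47 lay within 25% of the Paneth limit, 31 of the goblet limit, 12 of the macrophage limit and 6 of the tuft limit. The other 171 members carried none of these and are called the remaining members. No limit was set on enterocyte genes.

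Stem cell transcripts were few in most of the 42 members with genes of another type, although 9 of them reached 35 Olfm4 UMIs, the lowest count of the remaining members, and 1 Paneth-dominated member held 370. Olfm4 had a median of 4 UMIs in the Paneth-dominated members, 1 in the tuft members and 3.5 in the goblet members, against 153 in the remaining members. In pooled CPM (the gene's UMIs divided by all UMIs of the group and scaled to 1e6), Olfm4 stood at 528, 706 and 559 in the Paneth, tuft and goblet members and at 5899 in the remaining members. Slc12a2, which encodes the basolateral sodium-potassium-chloride cotransporter, stood at 166, 279 and 463 CPM against 1447. Gkn3, a gastrokine gene used as a stem cell marker in the mouse intestine, stood at 16.3 CPM in the Paneth members, had no UMI in the tuft or goblet members, and stood at 108 CPM in the remaining members. Clca3b stood at 128, 148 and 237 CPM against 1645. In the tuft set, 1 member held 157 of the 172 Olfm4 UMIs and 31 of the 36 Clca3b UMIs. The proliferation gene Mki67 stood at 14.6, 16.4 and 39.5 CPM against 526. All 4 stem cell markers and Mki67 thus stood below the remaining members in each of the 3 sets. In the Paneth-dominated members these levels are shares of totals that include Paneth genes, which lowers them.

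**Figure D1:**
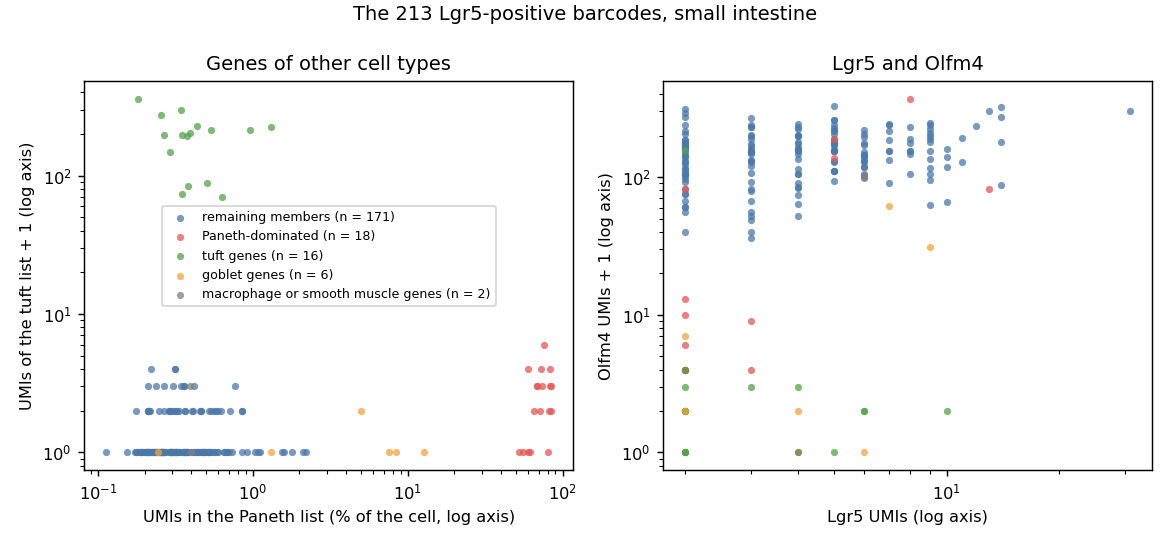
Each point is 1 of the 213 members. Left, UMIs in the tuft list plus 1 (log axis) against the percent of the cell's UMIs in the Paneth list (log axis), where 18 members lie above 50% Paneth UMIs and 16 at 69 or more tuft UMIs; right, Olfm4 UMIs plus 1 (log axis) against Lgr5 UMIs (log axis), where all 171 remaining members lie at 35 or more Olfm4 UMIs.

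Lgr5 is given by class as a description, since it chose the members. Of the 107 Epcam-positive barcodes with tuft genes, 16 had 2 or more Lgr5 UMIs (14.95%, 8.80% to 23.1%), beside the 171 of 1297 barcodes without genes of another type (13.2%, 11.4% to 15.1%). Pooled Lgr5 over all barcodes of the class was 38.7 CPM (30.1 to 49.0) for tuft and 28.7 CPM (26.9 to 30.6) for barcodes without genes of another type. For Paneth-dominated barcodes it was 8.97 CPM (7.10 to 11.2) of totals that include Paneth genes, which took a median of 72.5% of UMIs in the members of that class and 76.2% in its other barcodes, so this level cannot be set beside those of the other classes. The share of 18 of 161 (11.2%) came with a median of 106835 UMIs in those 18 members. For goblet barcodes it was 7.66 CPM (5.63 to 10.2), with 6 of 260 (2.31%) past the limit. B cell barcodes, which should lack Lgr5, gave 3 Lgr5 UMIs in 225 barcodes, 3.94 CPM (0.812 to 11.5), at a median of 2857 UMIs. All these class levels include the members. In the large intestine, 18 of 87 barcodes with tuft genes (20.7%) met the rule, with Lgr5 at 40.4 CPM (31.6 to 50.9) over the class.

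The remaining members all carried the main stem cell markers. Olfm4 (ENSMUSG00000022026), a secreted glycoprotein, ranged from 35 to 327 UMIs per cell with a median of 153. Slc12a2 (ENSMUSG00000024597) ranged from 4 to 96 UMIs (median 37), and Clca3b (ENSMUSG00000037033) from 9 to 128 (median 41). Each of the 3 was present in every one of the 171 cells. Gkn3 (ENSMUSG00000030048) ranged from 0 to 23 UMIs (median 2), and 54 cells had none. Ascl2 (ENSMUSG00000009248) ranged from 0 to 16 (median 2), with 33 cells at 0, and Smoc2 (ENSMUSG00000023886), a secreted calcium-binding matrix protein, from 0 to 15 (median 6), with 1 cell at 0. All 4 of Olfm4, Slc12a2, Gkn3 and Clca3b were found in 117 of the 171, and at least 3 of them in all 171. Over all 213 members, 124 held all 4 and 195 held at least 3.

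The Olfm4 floor of the remaining members separated them from most other epithelial barcodes but not from all. The 9 of 42 members named above made up 21.4%. Among the other Epcam-positive barcodes without genes of another type, 80 of 1061 with no Lgr5 UMI (7.54%, 6.02% to 9.30%) and 37 of 65 with 1 Lgr5 UMI (56.9%, 44.0% to 69.2%) reached it. Those 117 barcodes resembled the remaining members in part, with Mki67 at 520 CPM against 526. Slc12a2 was 805 CPM in them against 1447 in the remaining members (log2 ratio 0.85, 0.78 to 0.91), Ascl2 57.1 against 93.3 (0.71, 0.47 to 0.95) and Gkn3 37.2 against 108 (1.54, 1.27 to 1.82).

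Levels of the stem cell markers rose with the number of Lgr5 UMIs a barcode held, although the median depth of the steps was alike, between 22615 and 25141 UMIs. Olfm4 was at 248 CPM in barcodes with 0 Lgr5 UMIs (1546 barcodes), 1443 with 1 (112), 2861 with 2 (62), 3725 with 3 (31), 5107 with 4 to 6 (74) and 5019 with 7 or more (46). Slc12a2 followed with 146, 426, 736, 984, 1253 and 1232 CPM. Both rose at each step up to 4 to 6 UMIs and were level from there. Gkn3 stood at 3.56, 17.9, 43.8, 51.7, 102 and 108 CPM, and Ascl2 at 6.21, 33.7, 55.3, 60.5, 63.1 and 95.9 CPM. Mki67 did not follow the same order, at 138, 281, 218, 365, 475 and 393 CPM. The steps also differed in Paneth RNA, with the Paneth lysozyme gene Lyz1 at 28627 CPM at 2 Lgr5 UMIs and 4353 CPM at 4 to 6. Of the 62 barcodes at 2 Lgr5 UMIs, 11 were Paneth-dominated, 9 carried tuft genes and 2 goblet genes. The part of such differences in these levels was not tested.

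**Figure D2:**
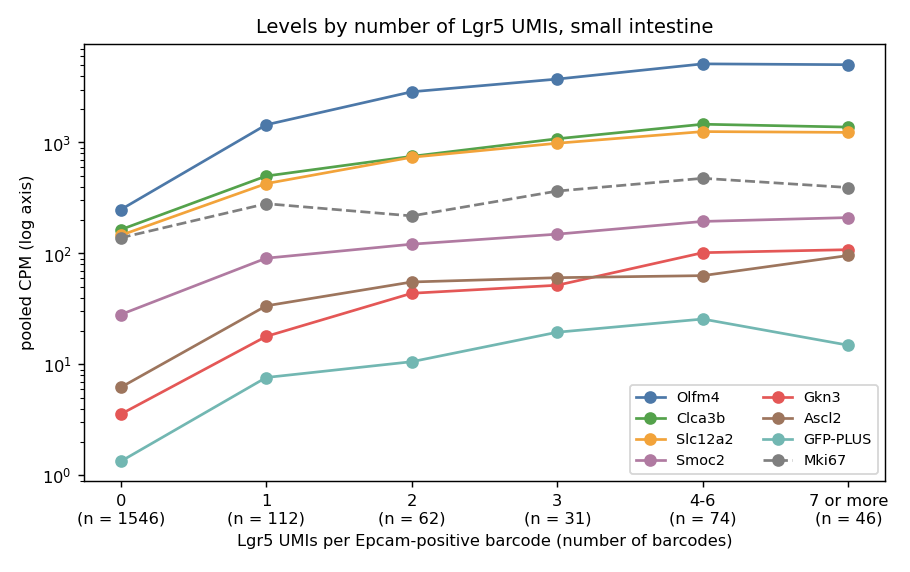
Pooled CPM (log axis) of 8 genes in Epcam-positive barcodes of the small intestine grouped by their number of Lgr5 UMIs, with the number of barcodes per group in brackets. Olfm4 goes from 248 CPM at 0 Lgr5 UMIs to 5019 at 7 or more, and the dashed line is Mki67.

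Against the other 1658 Epcam-positive barcodes, genes with at least 100 UMIs over both groups were compared by the log2 ratio of pooled CPM, with a count under 3 set to 3. A gene was called higher or lower past the fold where the log2 ratio was at least 1 or at most -1. Of 11427 genes, 1137 were higher (9.95%) and 1554 lower (13.6%) in the members, with a median log2 ratio of 0.08. For the 171 remaining members, 2267 of 11375 genes were higher (19.9%) and 1646 lower (14.5%), and the median of all genes moved to 0.34. The comparison groups kept their barcodes with genes of another type, here and below unless stated. With such barcodes left out of both groups, 1570 of 10665 genes were higher and 1453 lower, with a median of 0.21. Paneth genes took a large share of all UMIs in the barcodes they dominated. With CPM computed without mitochondrial, ribosomal protein and Paneth genes, 1901 genes were higher and 1253 lower in the 213 members. A second comparison used 415 Epcam-positive barcodes with no Lgr5 UMI and at least 2 UMIs of Mki67 and Top2a together, called cycling barcodes. There, 399 of 9638 genes were higher (4.14%) and 565 lower (5.86%), with a median of -0.02. Both comparisons share the members, so their values are given side by side only.

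Of the 27 stem cell genes other than Lgr5, 25 were higher past the fold against the other barcodes and 0 lower, with a median log2 ratio of 2.45, beside 9.95% of all genes. Against cycling barcodes 25 of 27 were higher, with a median of 1.95, beside 4.14% of all genes. Many of these markers were described in Lgr5-positive cells, and the list was chosen with results of these data known. In the remaining members 26 were higher against the others, beside 19.9% of all genes, and 27 against cycling barcodes, beside 8.42% (797 of 9464, with 6.39% lower and a median of 0.27 over all genes).

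Olfm4 had 27870 UMIs in the members, 4175 CPM (4126 to 4224) against 343 (337 to 348), a log2 ratio of 3.61 (3.58 to 3.64). Against cycling barcodes the log2 ratio was 3.05. Groups overlapped cell by cell, since single members lay at 0 and single other barcodes reached 359 UMIs. Gkn3 had 517 UMIs, 77.4 CPM against 4.69, a log2 ratio of 4.04 (3.81 to 4.29), and Tnfrsf19 had 154 UMIs, 23.1 CPM against 1.28, a log2 ratio of 4.17 (3.72 to 4.65). Tnfrsf19 had the highest ratio of the list. Slc12a2 stood at 1046 CPM against 168 (2.64, 2.59 to 2.69), Clca3b at 1161 against 190 (2.61, 2.56 to 2.65) and Ascl2 at 67.9 against 8.39 (3.02, 2.81 to 3.22). Nrn1, which encodes the membrane-anchored protein neuritin, stood at 56.8 CPM against 6.90 (3.04). Prom1 and Hopx, markers with a wider range in the crypt, had smaller ratios of 1.31 and 1.28. The transcription factor gene Jun and the RNA-binding protein gene Zfp36l1 did not pass the fold, at 0.54 and 0.65.

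**Figure D3:**
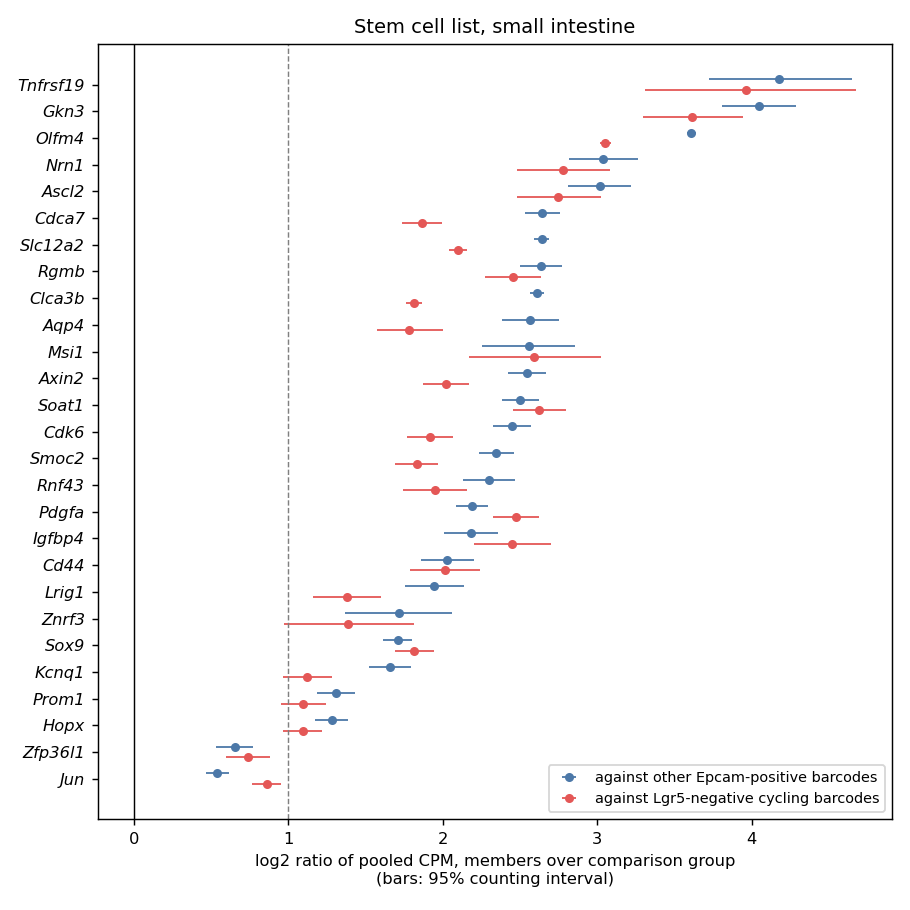
Log2 ratio of pooled CPM with 95% counting intervals for the 27 stem cell genes other than Lgr5, members over other Epcam-positive barcodes (blue) and over Lgr5-negative cycling barcodes (red). The dashed line is the fold limit of 1, and only Jun and Zfp36l1 lie below it in both comparisons.

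Detection per cell gave the same order at matched depth. When every barcode was thinned to 5000 UMIs, all 213 members and 1397 others were kept and 261 others were too shallow. Olfm4 was then found in 90.1% of members (85.3% to 93.8%) and 26.9% of others (24.6% to 29.3%), against 96.2% and 53.7% without thinning. Gkn3 was found in 30.05% (23.97% to 36.7%) and 1.79% (1.16% to 2.63%), against 58.2% and 6.03% without thinning, and Ascl2 in 30.5% and 4.44%. B cell barcodes are shallow, so the background was read at 2500 UMIs, which kept 159 of 225. There Olfm4 was found in 15.1% of B cells (9.92% to 21.6%), 18.9% of others and 87.3% of members. The share in the others as a whole was therefore within the background interval, while the share in the members was above it. Without thinning, 121 of the 1658 others still held 35 or more Olfm4 UMIs. Gkn3 was found in 1.26% of B cells, 1.11% of others and 17.4% of members, and Ascl2 in 0 of 159 B cells (up to 2.29%), 2.08% of others and 17.8% of members.

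The Wnt pathway was measured from receptor to target. Of 24 Wnt and R-spondin pathway genes tested (31 listed), 9 were higher and 1 lower against the others, with a median of 0.78, beside 9.95% and 13.6% of all genes. Among receptors, Fzd2 stood at 11.8 CPM against 1.53 (2.95, 2.46 to 3.44) and Fzd7 at 10.3 against 3.88 (1.41), both Frizzled receptors for Wnt ligands. Fzd5 stood at 40.3 against 63.9 (-0.67), and Fzd4 was lower, with 8 UMIs and a ratio of -1.84 (-3.08 to -0.83). The second R-spondin receptor gene, Lgr4, stood at 58.7 CPM against 45.7 (0.36), and the Wnt coreceptor gene Lrp6 at 53.8 against 50.2 (0.10). Neither of these 2 passed the fold. Rnf43 and Znrf3, whose products remove Frizzled from the surface, were both higher, at 78.05 CPM against 15.8 (2.30) and 15.9 against 4.83 (1.72). The signal carriers Ctnnb1 (0.25) and Apc (-0.04) did not pass the fold.

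Known Wnt targets were among the higher genes. Axin2, which encodes a feedback inhibitor, stood at 154 CPM against 26.4 (2.55, 2.42 to 2.67) and Sp5 at 40.0 against 5.6 (2.84, 2.58 to 3.09). Myc stood at 40.3 against 11.3 (1.84), Nkd1 at 10.6 against 3.21 (1.73) and the TCF factor gene Tcf7 at 8.84 against 2.86 (1.63). Ccnd1, the gene of cyclin D1, did not pass the fold at 127 against 82.5 (0.62). The ligand Wnt3 stood at 17.98 CPM in all members but at 4.23 CPM in the remaining members, a log2 ratio of -1.49 against the others. The Frizzled gene Fzd9 changed in the same way, from 6.14 CPM in all members to 0.445 CPM in the remaining ones. In both genes most of the members' UMIs lay in the cells that carried genes of another type. The others kept such cells, with Wnt3 at 43.4 CPM in their Paneth-dominated barcodes. Without genes of another type on either side, Wnt3 stood at 4.23 CPM (19 UMIs) in the members against 1.67 (47 UMIs) in the others.

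In the Notch pathway, both receptor genes Notch1 and Notch2 were higher in the members. The secretory fate gene Atoh1 was lower against the others, which include goblet barcodes. Of 11 Notch pathway genes tested (17 listed), 4 were higher and 1 lower (median 0.36), beside 9.95% and 13.6% of all genes. Notch1 stood at 45.8 CPM against 12.8 (1.85, 1.64 to 2.05), Notch2 at 8.39 against 2.49 (1.75) and Hes1, a repressor induced by Notch, at 108 against 42.6 (1.34, 1.21 to 1.46). Lfng, which modifies Notch receptors, had a ratio of 1.04. Atoh1, the transcription factor gene of secretory cells, stood at 14.2 against 35.3 (-1.31) and at 2.89 CPM in the remaining members (-3.61). It is on the goblet list that helped choose the remaining members, while the others kept their goblet and Paneth-dominated barcodes. Without genes of another type on either side, Atoh1 stood at 2.89 CPM (13 UMIs) in the members against 1.60 (45 UMIs) in the others. The ligand genes Dll1 (10.2 against 12.4, -0.28) and Jag1 (-0.12) did not pass the fold.

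BMP signalling opposes stem cell renewal towards the villus. Of 17 BMP pathway genes tested (21 listed), 2 were higher and 5 lower (median 0.08, between -0.47 and 0.35 over the alternative settings), beside 9.95% and 13.6% of all genes. Against cycling barcodes 1 of 15 was higher and 1 lower (median 0.14), beside 4.14% and 5.86%. Id3, a direct BMP target, stood at 46.0 CPM against 120 (-1.39, -1.56 to -1.22). Id4 had 2 UMIs, a ratio of -3.83 (-7.47 to -2.55), while Id1 did not pass the fold (69.7 against 103, -0.56). The inhibitory Smad genes Smad6 (-1.04) and Smad7 (-1.07) and the ligand gene Bmp2 (-1.55) were lower. Rgmb, a BMP coreceptor, was higher at 128 against 20.6 (2.64), as was the activin receptor gene Acvr2b (1.24). The receptor gene Bmpr1a stood at 41.8 against 32.2 (0.38). Bambi, which encodes a decoy receptor, stood at 24.1 CPM in all members and at 3.34 in the remaining members.

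The EGF receptor genes Egfr and Erbb3 did not pass the fold. Of 15 EGF pathway genes tested (19 listed), 2 were higher and 3 lower (median 0.06, between -0.09 and 0.45 over the alternative settings), beside 9.95% and 13.6% of all genes. Lrig1, a brake on EGF receptors and a crypt stem cell marker, stood at 54.7 CPM against 14.2 (1.95), and the ligand gene Btc at 7.79 against 3.72 (1.07). The ligand genes Areg (-1.37) and Ereg (-1.43) and the feedback phosphatase gene Dusp6 (-1.28) were lower. Egfr stood at 11.2 against 8.62 (0.38) and Erbb3 at 77.1 against 73.8 (0.06).

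Ephrin receptors and ligands position cells along the crypt. Ephb3 stood at 14.5 CPM against 4.23 (1.78, 1.41 to 2.14) and Ephb4 at 35.4 against 15.1 (1.23), while Ephb2 was just under the fold at 52.1 against 27.1 (0.95). The ligand gene Efnb2 was lower at 7.34 against 34.6 (-2.23, -2.68 to -1.82). Of 5 genes tested (8 listed), 2 were higher and 1 lower, beside 9.95% and 13.6% of all genes.

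Reelin is a secreted protein made by lymphatic endothelium, and its receptor and adaptor genes were compared in the same way. None of 5 genes tested (6 listed) was higher past the fold and 2 were lower, beside 9.95% and 13.6% of all genes. The adaptor gene Dab1 stood at 14.7 CPM against 41.2 (-1.49, -1.80 to -1.19), the receptor gene Lrp8 had 14 UMIs (2.10 CPM) and Vldlr stood at 4.79 against 6.34 (-0.40). Itgb1, the integrin beta 1 gene, stood at 93.8 against 101 (-0.11), and Reln itself at 2.40 against 14.5 (-2.60). Against cycling barcodes Dab1 stood at -0.90 and did not pass the fold.

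Among 22 transcription factor genes of the intestinal epithelium tested (25 listed), 6 were higher and 2 lower (median 0.17), beside 9.95% and 13.6% of all genes. Sox4 stood at 268 CPM against 51.6 (2.37, 2.28 to 2.46) and Sox9 at 203 against 62.1 (1.71). Sox9 also stood at 673 CPM in the tuft members, above its 232 CPM in the remaining members. Tgif1 (1.66) and Ehf (1.01) were higher. Klf4, a factor of differentiated and goblet cells, stood at 37.9 against 114 (-1.58), and Hnf4g at 61.0 against 126 (-1.04). The genes of the intestinal identity factors Cdx2 (106 against 99.8, 0.08) and Hnf4a (153 against 147, 0.07) did not pass the fold.

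Division genes were compared with all other barcodes and with cycling ones. Of 30 DNA replication genes, 25 were higher against the others (median 1.38) and 0 against cycling barcodes (median 0.26), beside 9.95% and 4.14% of all genes. Of 35 mitosis genes, 26 were higher against the others (median 1.13) and 0 against cycling barcodes (median -0.05), where Mki67 and Top2a had chosen the group. Mki67 stood at 359 CPM against 149 (1.26), Mcm2, part of the replicative helicase, at 35.1 against 13.9 (1.34) and Pcna at 123 against 62.2 (0.98). In the remaining members all 30 replication genes and all 35 mitosis genes were higher against the others, and 7 and 0 against cycling barcodes, beside the 19.9% and 8.42% of all genes. At 5000 UMIs per cell, the members had a median of 4 replication and 5 mitosis UMIs, the others 1 and 1, and the cycling barcodes 3 and 14. The 20 of 225 B cell barcodes deep enough for this had 5 and 7. Of the 213 members, 8 had neither kind.

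Of 18 cell cycle regulator genes tested, 6 were higher and 3 lower, beside 9.95% and 13.6% of all genes. Cdk6, a kinase that drives entry into the cycle, stood at 150 CPM against 27.5 (2.45, 2.32 to 2.57) and at 1.92 against cycling barcodes. Cdk4 (1.28), E2f1 (1.34), Mycl (1.47), Myc and Ccne2 (1.02) were the other higher genes. Cdkn1a, the gene of the cycle inhibitor p21, stood at 28.2 against 148 (-2.39, -2.61 to -2.18) and at 14.5 CPM in the remaining members. Rb1 (-1.08) and E2f2 (-1.24) were lower.

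Most ketone and fatty acid genes lay between the folds, as did most of all genes tested. Of 19 ketone and fatty acid genes tested (21 listed), 1 was higher and 3 were lower (median -0.55), beside 9.95% and 13.6% of all genes. In the remaining members 1 was higher and 1, Ldha, lower, beside 19.9% and 14.5%. Ldha, a lactate dehydrogenase gene, stood at 267 against 844 (-1.66, -1.73 to -1.59), Ppara at 7.64 against 18.6 (-1.28) and Cpt2 at 27.1 against 56.5 (-1.06). Cpt1a, which encodes the carnitine transferase of fatty acid import, stood at 47.0 against 60.5 (-0.36).

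Antigen presentation genes were present in the members and did not pass the fold upward in pooled levels against the others. The 10 MHC class II genes summed to 1242 CPM in the members and 1456 in the others. Their median per cell was 1210 CPM in the members, 273 in the others and 264 in cycling barcodes. The highest of the others held 99719 CPM. Of 10 MHC class II genes tested, 0 were higher and 3 lower (median -0.23, between -1.11 and 0.54 over the alternative settings), beside 9.95% and 13.6% of all genes. The 3 lower ones, H2-DMb2, H2-Oa and H2-Ob, had at most 2 UMIs in the members. H2-Ab1 stood at 183 CPM against 218 (-0.25) and Cd74, the invariant chain gene, at 712 against 818 (-0.20). Against cycling barcodes both lay on the high side, at 0.51 and 0.50, without passing the fold. In the remaining members 2 of 7 were higher past the fold against cycling barcodes (median 0.86), H2-Eb1 at 1.198 and H2-DMb1 at 1.06, beside 8.42% of all genes.

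Of 11 genes of reserve and regenerating cells tested (14 listed), 3 were higher and 5 lower, beside 9.95% and 13.6% of all genes. Mex3a, an RNA-binding protein gene of slowly cycling Lgr5 cells, stood at 14.2 CPM against 2.32 (2.61, 2.19 to 3.03), beside Lrig1 and Hopx. Bmi1 (8.99 against 6.74, 0.42) and Tert (0.27) did not pass the fold. The regenerative genes Ly6a (1.35 against 30.4, -4.49), Anxa2 (53.9 against 359, -2.73), Anxa1 (-2.13), Krt19 (-1.60) and Cd55 (-1.83) were lower.

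**Figure D4:**
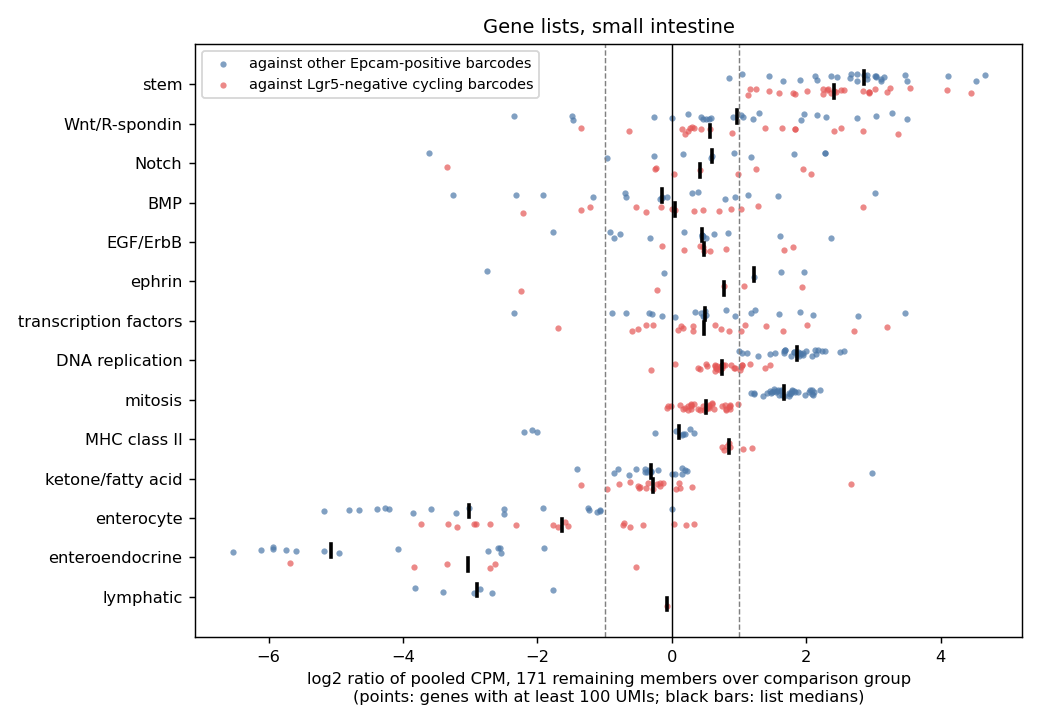
Log2 ratio of pooled CPM for each gene with at least 100 UMIs in 14 lists, the 171 remaining members over other Epcam-positive barcodes (blue) and over Lgr5-negative cycling barcodes (red), with black bars at list medians and dashed lines at the fold limits. The stem cell list has medians of 2.86 and 2.41, and the replication and mitosis lists lie past the fold against the others with medians of 1.87 and 1.67. Both comparison groups kept their barcodes with genes of another type.

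Most markers of enterocytes, enteroendocrine cells and goblet cells were lower in the members than in the others. Of 19 enterocyte genes 18 were lower (median -3.07), beside 13.6% of all genes, with Fabp1, a fatty acid binding protein gene of absorptive enterocytes, at 80.4 CPM against 1477 (-4.20). Single remaining members still held many enterocyte UMIs, since the list summed to a median of 1531 CPM over the 171 but to 13032 and 12582 CPM in 2 of them, against a median of 2418 CPM in the other barcodes. Of 14 enteroendocrine genes all were lower (median -4.56), and 6 of the 15 on the list had 0 UMIs in the members. Of 12 goblet genes 9 were lower (median -2.67), and the median came to -0.43 in 1 of 16 alternatives, where barcodes with genes of another cell type, goblet genes included, were left out of both groups. The tuft list had 0 of 10 past the fold (11 listed, median 0.06) and the Paneth list had 1 of 15 higher, Lyz1 at 15431 CPM against 7285 (1.08). Those 2 lists rested on the members that carried such genes. Lyz1 stood at 255 CPM in the remaining members (-4.84 against the others), and Dclk1, a tuft marker, fell from 81.9 CPM in all members to 1.34, both by the choice of the remaining members.

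Markers of cells of other tissues were mostly lower in the members than in the others. Plasma cell RNA was nonetheless found in nearly every barcode, with a UMI of the plasma cell list in 99.1% of members and 96.9% of others, at summed levels of 331 and 10353 CPM and medians per cell of 288 and 307 CPM. Igkc, an immunoglobulin light chain gene, stood at 363 CPM and was found in 98.6% of members and 98.3% of others. Of lymphatic endothelial markers, 5 of 6 tested were lower (median -3.04), beside 13.6% of all genes. That median was not past the fold in 2 of 16 alternatives, at -0.74 with members taken from 1 Lgr5 UMI and -0.86 with at least 3 Epcam UMIs in both groups, and against cycling barcodes 0 of 3 genes were lower (median -0.29). The summed level of all 7 on that list was 23.7 CPM in the members against 142 in the others, with a median of 0 per member and a highest member at 626. Prox1, the exception, stood at 8.69 against 13.7 (-0.66). All 5 B cell, 5 of 6 plasma cell, both T cell, 5 of 6 macrophage, all 6 blood endothelial and all 6 fibroblast genes tested were lower. With at least 3 Epcam UMIs in both groups, the macrophage median turned from -1.83 to 0.72 and the blood endothelial one from -3.00 to 0.068. Acta2, a smooth muscle actin gene, was higher (1.58), but 84.2% of its UMIs in the members came from 1 cell.

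Ranked by size over all genes, the 15 highest were Tnfrsf19, Gkn3, Zbtb16, Olfm4, Scn2b, Slc14a1, Edn1, Sorbs2, Bex1, Nr2e3, Bex4, Nrn1, Ascl2, Hunk and Sp5. All 15 were also past the fold against cycling barcodes and in the remaining members, and in none did 1 cell hold most of the UMIs. Zbtb16, which encodes the zinc finger factor PLZF, had 158 UMIs in the members, 23.7 CPM against 1.93 (3.62, 3.23 to 4.02). Scn2b, a sodium channel beta subunit gene, stood at 22.8 CPM against 2.11 (3.43) and Slc14a1, a urea transporter gene, at 26.7 against 2.77 (3.27). Edn1, the gene of the vasoactive peptide endothelin-1, stood at 15.7 against 1.72 (3.19), Sorbs2, an adaptor of the cytoskeleton, at 111 against 12.5 (3.15) and Nr2e3, a nuclear receptor gene, at 34.5 against 3.997 (3.11). Sorbs2 was found in 81.7% of members and Edn1 in 25.8%.

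The 15 lowest were Iglv1, Iglc3, Chgb, Pyy, Mzb1, Ly6c2, Iglc2, Slpi, Zg16, Jchain, Gcg, Clca1, Ly6d, Dcn and Igkc. They are immunoglobulin and plasma cell genes (Iglv1, Iglc2, Iglc3, Igkc, Jchain, Mzb1), hormone cell genes (Chgb, Pyy, Gcg), goblet genes (Zg16, Clca1) and genes of other cells. All 15 were past the fold against cycling barcodes, in the remaining members and in the large intestine. For 2 of them, Iglc3 (66.9%) and Pyy (58.9%), a single other barcode held most of the UMIs. The sizes of several depended on the limits: with at least 3 Epcam UMIs in both groups Iglc3 went from -6.67 to -2.06 and Dcn from -5.74 to -2.73, and with members taken from 1 Lgr5 UMI Slpi went from -6.03 to -3.19 and Pyy from -6.19 to -4.01.

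GFP-PLUS, a feature added to the gene list whose sequence the labels do not describe, was higher in the members. It had 117 UMIs in the members and 79 in the others, 17.5 CPM (14.5 to 21.0) against 1.84 (1.45 to 2.29), a log2 ratio of 3.26 (2.83 to 3.69). At 5000 UMIs it was found in 10.8% of members (6.97% to 15.8%) and 1.00% of others (0.549% to 1.68%), against 22.5% and 2.96% unthinned, and in 0 of 159 B cell barcodes at 2500 UMIs, which allows a share of up to 2.29%. A second feature, GFP-MINUS, had 1 UMI in the members and 3 in the others. Among the remaining members 39 had a GFP-PLUS UMI and 132 had none. Olfm4 stood at 7216 CPM in the 39 and 5592 in the 132 (0.37, 0.33 to 0.41).

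The remaining members varied in division and in genes that mark position along the intestine. An Mki67 UMI was found in 117 of the 171 (median 27805 UMIs per cell) and not in 54 (median 17566). In the 117, Slc12a2 stood at 1295 CPM against 1959 (-0.60) and Gkn3 at 92.5 against 160 (-0.79). Ascl2 (93.9 against 91.3, 0.04) and Axin2 (218 against 215, 0.02) stood at like levels on both sides. Depth differed between the 2 sides, and its part in these values was not tested.

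Some genes with a known gradient along the small intestine differed between remaining members with and without Gata4 or Bex1. Gata4, a transcription factor gene of the proximal small intestine, was found in 62 cells (median 30559 UMIs) and not in 109 (median 21348). Bex1, a small brain-expressed X-linked gene placed in the distal list, stood at 39.2 CPM in the 62 and 113 in the 109 (-1.53, -1.92 to -1.16). Onecut2 stood at 139 against 79.9 (0.80, 0.53 to 1.07). Osr2, also of the distal list, stood at 48.3 against 53.7 (-0.16, -0.55 to 0.24), and at 0.07 (-0.32 to 0.45) in the split by Bex1. The division genes Mki67 (680 against 414, 0.72) and Top2a (0.77) moved with the split by Gata4, and their part in it was not tested, nor was that of depth. Split by Bex1 instead (75 cells with, 96 without), Gkn3 stood at 68.6 CPM with Bex1 and 140 without (-1.03, -1.32 to -0.74) and Onecut2 at 52.7 against 147 (-1.48, -1.80 to -1.16), while Gata4 stood at 16.4 against 25.0 (-0.61, -1.26 to 0.02). Olfm4 was alike on both sides (5836 and 5950 CPM, -0.03). The enterocyte gene Fabp1 differed in both splits. It stood at 92.8 CPM with Gata4 and 24.2 without (1.94, 1.52 to 2.38), and at 20.4 with Bex1 and 79.4 without (-1.96, -2.48 to -1.47). Counts of cells with both genes of a pair went both ways about the product of the shares. Gata4 and Bex1 occurred together in 22 cells (product 27.2), Gkn3 and Bex1 in 44 (51.3) and Onecut2 and Osr2 in 68 (70.7). Onecut2 and Gata4 occurred together in 49 cells (38.8), Gkn3 and Gata4 in 47 (42.4), Gata4 and Osr2 in 44 (40.97) and Gkn3 and Osr2 in 77 (77.3). These splits were chosen after seeing the data.

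Against the other barcodes, of 7 proximal genes tested (8 listed), Gkn3 was higher and 4 were lower, beside 9.95% and 13.6% of all genes, among them Creb3l3 (7.19 CPM against 70.1, -3.29) and Nr1i3 (-3.31), while Gata4 stood at 16.6 against 25.9 (-0.64). Of 7 distal genes tested (11 listed), Bex1 (62.5 against 7.18, 3.12, 2.91 to 3.34) and Bex4 (17.5 against 2.11, 3.05) were higher. Fabp6, the ileal bile acid binding protein gene, stood at 51.7 against 1805 (-5.13) and Slc10a2, the ileal bile acid transporter gene, at 1.65 against 15.2 (-3.20). Creb3l3, Fabp6 and Slc10a2 are genes of mature enterocytes.

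The same rule in the large intestinal library gave 540 of 5294 Epcam-positive barcodes (10.2%, 9.40% to 11.0%), with a median of 29645 UMIs. Of 13283 genes there, 341 were higher (2.57%) and 1678 lower (12.6%) against the 4754 others. Of the 25 stem cell genes with enough UMIs, 14 were higher and 0 lower (median 1.02). Msi1 (2.12), Ascl2 (68.1 CPM against 21.2, 1.68), Smoc2 (1.68), Clca3b (897 against 311, 1.53) and Axin2 (57.0 against 19.9, 1.52) led. Slc12a2 did not pass the fold there, at 776 against 433 (0.84). Igfbp4 (-0.29), Nrn1 (0.07), Aqp4 (0.03), Soat1 (0.16) and Tnfrsf19 (0.42), which were past the fold in the small intestine, did not pass it.

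Olfm4 had 8 UMIs in the large intestinal cells (0.457 CPM) and Gkn3 had 0. The ratio was larger in the small intestine for each of the 25 genes tested in both, and each tissue was 1 library, so the tissue cannot be told apart from its library. The comparison groups also differ in their cell types, which was not tested. Of the 15 genes highest in the small intestine, 8 were also higher in the large intestine, and 6 stood under 5 CPM in both groups there. Fabp1 marks one difference between the comparison groups, at 1477 CPM in the small intestinal and 0.665 CPM in the large intestinal other barcodes. GFP-PLUS was higher in both, at 55.9 CPM against 8.91 in the large intestine (2.65, 2.52 to 2.78), and was found in 68.3% of the large intestinal and 22.5% of the small intestinal cells before thinning and in 23.1% and 10.8% at 5000 UMIs.

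**Figure D5:**
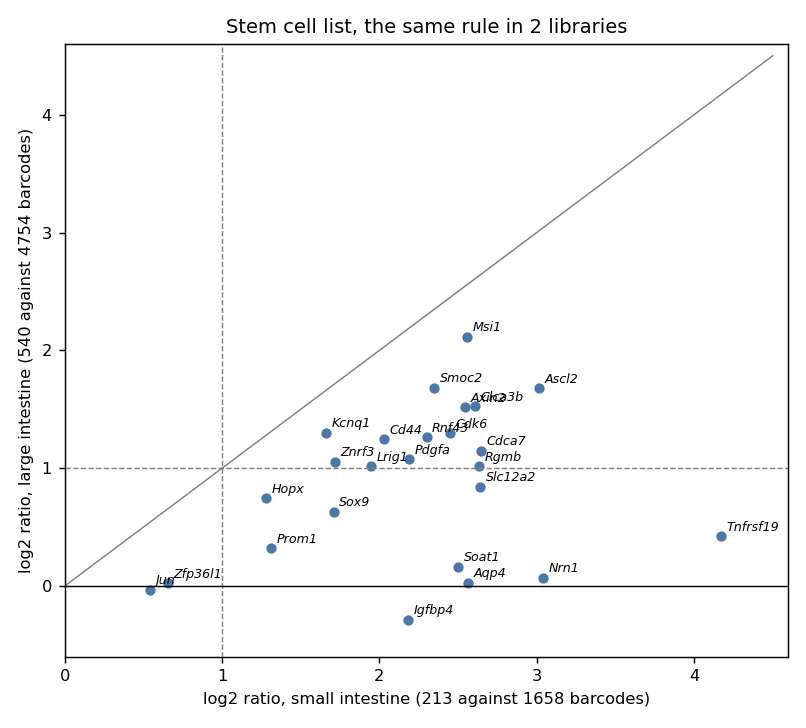
Log2 ratio of pooled CPM in the large intestine (540 barcodes against 4754 others) against that in the small intestine (213 against 1658) for 25 stem cell genes, with dashed lines at the fold limit of 1 and a grey line of equal ratios. Every point lies under the line of equal ratios, and Tnfrsf19 and Nrn1 lie farthest from it.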

How the data were processed

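The deposited files hold whole-number counts of UMIs per gene and barcode for each 10X library, made with Cell Ranger 6.0.1 on mm10, per the submitters' processing notes. Gene identifiers were taken from the files, and 32158 of 32285 were found in the table of gene names. Barcodes were filtered on genes (500) and mitochondrial share (20%). Counts were pooled per group and divided by the group's total, in Python 3.11.15 with scipy 1.17.1 and pandas 2.3.3. Ratios carry exact Poisson intervals and shares exact Clopper-Pearson intervals (95%). The ratio code was tested on simulated data. Doublet scores came from Scrublet in scanpy 1.11.5. Cell Ranger merges reads that share a UMI, and UMIs of near-identical genes, such as the Paneth defensins, may be split between copies.

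The text names genes of 30 lists (422 genes) with at least 20 UMIs in the members or the others, and the 15 highest and 15 lowest ratios where the higher group held 100 UMIs or more, leaving out mitochondrial, ribosomal protein, sex-linked dosage and unnamed genes. The members, lists and rules were chosen with earlier results of these data known. Spatial libraries were not used here. The alternatives were other UMI, mitochondrial and Epcam limits, other scalings, other comparison groups and doublet removal. Members without genes of another cell type, and both groups without them, were chosen after seeing the data. Some genes of the lists are not reported here.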

Additional observations from a re-analysis of the deposited data

Results flagged for a closer look

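Of 353 listed or named genes compared in both tissues, 4 were past the fold in opposite directions in the 2 libraries, and none of these differences was tested. Lyz1, the Paneth lysozyme gene, had a log2 ratio of 1.08 in the small intestine and -4.42 in the large intestine, and the 171 remaining small intestinal members gave -4.84. Reg1, a lectin gene of absorptive cells, had -4.05 in the small intestine and 1.05 in the large intestine. Acta2 had 1.58 in the small intestine, with 84.2% of the members' UMIs in 1 cell, and -3.46 in the large intestine. Zbtb16 had 3.62 in the small intestine and -2.04 in the large intestine, where the Lgr5-positive cells held 4 UMIs.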

How the results depend on the processing

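No paired analysis was possible because each group compared came from 1 library. The number of members was 213 at 2 Lgr5 UMIs and 325 at 1. Genes higher past the fold numbered 1137, with 1554 lower, and became 1901 (1253 lower) with CPM without mitochondrial, ribosomal protein and Paneth genes and 2267 (1646 lower) in members without genes of another cell type. With barcodes that carry genes of another cell type left out of both groups, 1570 were higher and 1453 lower. The share of members with an Olfm4 UMI was 90.1% at 5000 UMIs and 96.2% unthinned. For the others it was 26.9% at 5000 UMIs, 18.9% at 2500 and 53.7% unthinned. For Gkn3, members gave 30.05%, 17.4% and 58.2% and others 1.79%, 1.11% and 6.03% in the same order. For GFP-PLUS, members gave 10.8%, 5.16% and 22.5%, and others 1.00% at 5000 UMIs and 2.96% unthinned. With at least 3 Epcam UMIs in both groups, the macrophage list median turned from -1.83 to 0.72 and the blood endothelial one from -3.00 to 0.068, and the cause was not tested. Of 512 values of single genes under alternatives, 406 stayed within the counting interval, 106 moved out of it and 0 changed sign past the fold. Of 473 list medians, 414 stayed within 0.5, 57 moved by more and 2 reversed. The 15 highest genes stayed past the fold in all 16 alternatives. Of the 15 lowest, Zg16 came to -0.10 and Clca1 to -0.69 when barcodes with genes of another cell type, goblet genes included, were left out of both groups, and the other 13 stayed past it, although Iglc3, Dcn, Slpi and Pyy changed in size. Genes with few UMIs, such as Id4 and Lrp8, are limited by depth.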

Other observations

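The same limits applied to organoids gave 57 of 523 Epcam-positive barcodes grown alone (10.9%, 8.36% to 13.9%) and 26 of 1013 in coculture (2.57%, 1.68% to 3.74%). Olfm4, Ascl2, Axin2, Gkn3 and Smoc2 had smaller log2 ratios in both organoid libraries than in the small intestinal tissue library. Olfm4 stood at 251 CPM against 139 in the other barcodes of organoids alone (0.86, 0.78 to 0.93) and at 95.7 against 68.5 in coculture (0.48, 0.32 to 0.64). Ascl2 had log2 ratios of 1.83 and 1.07, and Axin2 of 1.34 and 1.14. Gkn3 had 1.84 (1.32 to 2.35) in organoids alone and 0.99 (-0.94 to 2.43) in coculture, and Smoc2 0.16 and 0.05. Each organoid condition was 1 library, so these differences were not tested.

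Among the 171 remaining members of the small intestine, 141 had an H2-Ab1 UMI and 30 had none, at median depths of 23043 and 24823 UMIs. Cd74 stood at 1083 CPM in the 141 and 140 in the 30 (2.95, 2.68 to 3.24). GFP-PLUS had 103 UMIs in the 141 and 2 in the 30, a log2 ratio of 2.88 (1.57 to 6.53). The split was chosen after seeing the data, and the labels do not say from which animals the cells came.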
